A study of Homo sapiens with 16 samples.

Results

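HDAC1 peaks without HDAC3 are positions in control LNCaP cells where the HDAC1 ChIP-seq list held a peak that overlapped no peak of the control HDAC3 list by even 1 bp. There were 9575 of them among 16632 HDAC1 peaks (57.6%), and the other 7057 HDAC1 peaks (42.4%) overlapped HDAC3. The sites were selected on the control HDAC1 and HDAC3 peak calls, so the number of sites and their HDAC1 strength are descriptions of the choice. The sites were described with lists that played no part in it, namely chromatin accessibility (ATAC-seq), HOXB13, HDAC3 after HOXB13 knockdown, and H3K27ac of PC-3 cells.

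HDAC1 and HDAC3 are class I histone deacetylases, enzymes that remove acetyl groups from histones and other proteins. HDAC1 works in the NuRD, SIN3 and CoREST complexes, and HDAC3 is the catalytic subunit of the NCOR/SMRT corepressor complexes, so both can be found at active as well as at repressed regulatory elements. HOXB13, a homeodomain protein that binds DNA in prostate epithelium, helps set prostate gene expression, and H3K27ac is a histone mark of active promoters and enhancers that histone deacetylases can remove.

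The study profiled LNCaP, an androgen-sensitive prostate cancer cell line, and PC-3, an androgen-independent one. LNCaP groups were HOXB13 shRNA with HOXB13-WT lentivirus, HOXB13 shRNA with HOXB13-G84E lentivirus (G84E is a substitution in HOXB13), HOXB13 shRNA alone, and the pGIPZ control shRNA vector, each infected for 7 days. PC-3 groups were HOXB13 shRNA (H3K27ac) and pGIPZ control (H3K27ac and HOXB13); the infection time of PC-3 is not stated separately. HDAC1 was profiled in control LNCaP only and HDAC3 in LNCaP with HOXB13 shRNA and with control vector, and the LNCaP ATAC libraries came from 50000 cells each. Every group held 1 library, and control as well as knockdown LNCaP cells had been infected with an shRNA vector.

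The depth of the 12 libraries, with M for mega, ranged from 13.5 M tags (PC-3 H3K27ac after HOXB13 shRNA) to 47.2 M (LNCaP HOXB13 after HOXB13 shRNA). The HDAC1 library held 13.96 M tags, of which 3.73% lay in peaks, and the control HDAC3 library 21.6 M. PC-3 HOXB13 was precipitated with another antibody than LNCaP HOXB13, and the 4 LNCaP H3K27ac samples were not analysed here. The identity of the cell lines was not checked, since the lists give positions in the hg19 build and no genes. Without replicates no difference between conditions was tested. Intervals given are 95% intervals of counting error over peaks of 1 library and say nothing of the spread between cultures.

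HDAC1 without HDAC3 was a class of mostly modest peaks. The median HDAC1 normalized tag count, scaled to 10000000 tags, was 15.8 (quartiles 11.5 to 23.6), which is 22 sequenced tags per peak, against 19.3 (quartiles 13.6 to 27.2), or 27 sequenced tags, at HDAC1 peaks with HDAC3. The median fold over the local background was 7.21 at sites without HDAC3 and 9.23 at sites with it. The 2 distributions overlapped over most of their range. Of the weakest of 10 equal groups of all HDAC1 peaks 73.4% lacked HDAC3, and of the strongest group 44.9%. The authors' threshold for the control HDAC3 list was 16 tags, per the file header, and its lowest listed count was 6.03 normalized tags, so weaker HDAC3 signal at these sites would not be listed.

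The boundary of the class was crossed by small distances. Of the 9575 sites, 736 (7.69%) lay within 100 bp of a control HDAC3 peak, and 1002 (14.2%) of the HDAC1 peaks with HDAC3 overlapped it by 100 bp or less. Just inside, with a gap of 1 bp, were the peaks at chr1:39325010-39325326 (35.8 HDAC1 normalized tags), chr6:35656035-35656351 (29.4) and chr10:99400517-99400833 (27.9). Just outside, with an overlap of 1 bp, were chr17:78075021-78075337 (45.9 HDAC1 and 12.5 HDAC3 normalized tags), chr9:20684163-20684479 (38.7 and 24.1) and chr3:12526072-12526388 (36.5 and 28.3). Their HDAC1 tag counts on the 2 sides overlapped in their counting intervals. Ties were broken by higher HDAC1 tag count, so these counts do not compare the peaks on the 2 sides in general. When shared peaks had to have centres within 100 bp, 84.6% of HDAC1 peaks counted as without HDAC3, and when no HDAC3 peak was allowed within 1000 bp it was 40.4%.

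The strongest members on chromosomes 1 to 22 and X differed in the lists called there. They are extremes and do not stand for the class, in which 95% of sites had 37.3 HDAC1 normalized tags or fewer. At chr10:42544632-42544948 the HDAC1 normalized tag count was 265.1 (95% CI 238.8 to 293.5), and the HOXB13 count was 339.9 after HOXB13 shRNA and 203.1 in control cells. Next came chr6:61913997-61914313 with 202.1, chr1:120838881-120839197 with 136.9 and chr10:42409102-42409418 with 130.4 HDAC1 normalized tags. The chromosome 6 position and the weaker chromosome 10 position were called in 9 of the 12 lists each, and the strongest in 7. By contrast chr5:892930-893246 (111.8 HDAC1 normalized tags, 95% CI 94.9 to 130.8) had ATAC peaks and PC-3 H3K27ac and no HOXB13 peak in any of the 5 HOXB13 lists. Its ATAC count was 9.42 normalized tags after HOXB13 shRNA and 8.03 in the control, and its PC-3 H3K27ac count 313.5 after HOXB13 shRNA and 286.0 in the control.

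Other strong sites, picked by HDAC1 tag count within classes, also differed from each other in the lists called. At chr21:9825948-9826264 (102.5 HDAC1 normalized tags) the ATAC count was 192.7 after HOXB13 shRNA and 169.1 in the control, and the HOXB13 count was 268.0 after HOXB13 shRNA and 90.8 in the control. At chrX:115004552-115004868 (108.2 HDAC1 normalized tags) ATAC was 46.3 after HOXB13 shRNA and 49.5 in the control, and HOXB13 was listed after the shRNA (42.4) and not in the control. The listed HOXB13 count was higher after the shRNA than in control cells at the chromosome 21 position and at the strongest chromosome 10 site. The X position has no listed control value. At chr9:66833024-66833340 (86.0 HDAC1 normalized tags) the order was the other one, with HOXB13 counts of 93.9 with HOXB13-WT, 78.0 after the shRNA alone and 119.3 in the control. No input library was named and positions of high background were not removed. These counts therefore do not show a change in HOXB13 binding. At the strongest sites of the class background cannot be told apart from binding. At the strongest chromosome 10 site HDAC1 was only 4.94-fold over the local background, against a class median of 7.21. Sites with little else included chr20:62669866-62670182 with 85.3 HDAC1 normalized tags, 16356 bp from the nearest control HDAC3 peak, where the only other call was a PC-3 H3K27ac region after HOXB13 shRNA (16.3 normalized tags).

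Open chromatin marked fewer of the HDAC1 sites without HDAC3 than of those with it. A control ATAC peak lay at 2982 (31.1%) of the sites without HDAC3 and at 4323 (61.3%) of those with it, where 43.9% of all HDAC1 peaks had one. The difference was −30.1 percentage points (95% CI −31.6 to −28.6), and at equal HDAC1 tag count it was −27.7 points. After HOXB13 shRNA an ATAC peak lay at 22.8% of the sites without HDAC3 and at 53.1% of those with it (35.6% of all HDAC1 peaks).

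ATAC peaks that were present were somewhat weaker at sites without HDAC3 than at sites with it. Their median normalized tag count in control cells was 5.81 (quartiles 4.43 to 7.47) without HDAC3 and 6.64 (quartiles 4.98 to 9.13) with it. The median of the whole ATAC list was 5.26. One of the strongest open sites was chr12:109535588-109535904, with 108.9 HDAC1 normalized tags (95% CI 92.3 to 127.7), an ATAC count of 9.03 after HOXB13 shRNA and 9.96 in the control, and the nearest control HDAC3 peak 4012 bp away. At chr5:149737393-149737709 HDAC1 reached 110.3 normalized tags and ATAC 6.28 after HOXB13 shRNA and 6.92 in the control, with a control HDAC3 peak only 14 bp away.

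**Figure D1:**
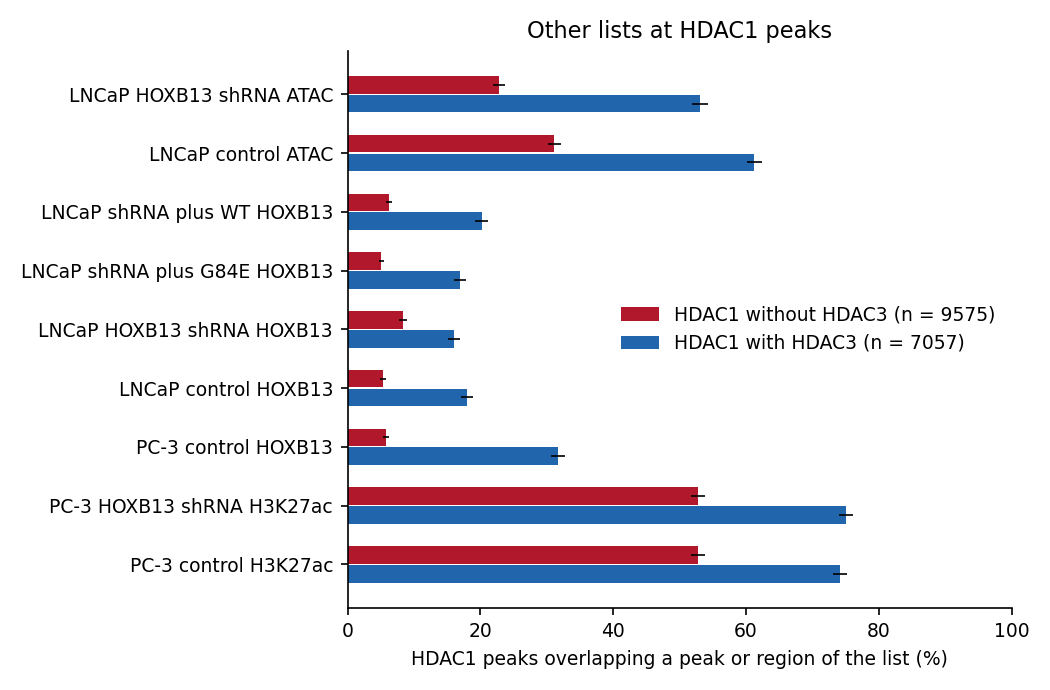
Share of HDAC1 peaks that overlap a peak or region of each other list (x axis, percent) for HDAC1 without HDAC3 (red, 9575 peaks) and HDAC1 with HDAC3 (blue, 7057 peaks); lines are Wilson 95% intervals. Every red bar is shorter than its blue partner, with the control ATAC list at 31.1% against 61.3% and PC-3 control H3K27ac at 52.8% against 74.1%.

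Accessibility without HDAC3 was less often called again after HOXB13 knockdown. Of the 2982 sites with a control ATAC peak, 1608 (53.9%) also had one after HOXB13 shRNA, against 3121 of 4323 (72.2%) at HDAC1 peaks with HDAC3 (64.7% of all HDAC1 peaks with control ATAC). The difference was −18.3 points (95% CI −20.5 to −16.0), and −18.3 at equal HDAC1 tag count. Counted over ATAC peaks in place of HDAC1 peaks it was −15.1 points, and −9.52 at equal ATAC tag count. Of the sites without a control ATAC peak, 575 (8.72%) had one after HOXB13 shRNA, against 22.8% at HDAC1 with HDAC3 (12.8% of all such HDAC1 peaks). Counting any ATAC peak within 1000 bp in both libraries gave larger sets, with control ATAC at 5598 sites without HDAC3 and 5946 with it. Recall in those sets was 82.3% without HDAC3 and 89.96% with it, a difference of −7.70 points. The knockdown ATAC library had 25.5 M tags and the control 36.1 M, and the part of depth in peaks that were not called again was not tested.

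Seen from the ATAC list, the open sites at HDAC1 without HDAC3 had little HOXB13. Of control ATAC peaks at these sites (3231, or 8.72% of the 37073 ATAC peaks) 5.45% had a control HOXB13 peak, against 15.4% at HDAC1 with HDAC3 and 30.2% at no HDAC1 peak (26.1% of all ATAC peaks). The difference from ATAC peaks with no HDAC1 was −24.7 points (95% CI −25.6 to −23.7), and −25.2 at equal ATAC tag count. PC-3 H3K27ac had the other order against ATAC peaks with no HDAC1, with 70.9% at HDAC1 without HDAC3, 80.1% at HDAC1 with HDAC3 and 46.1% at no HDAC1 peak (52.6% of all ATAC peaks). The difference between sites without HDAC3 and ATAC peaks with no HDAC1 was 24.8 points (95% CI 23.1 to 26.5). The same ATAC peaks were called again after HOXB13 shRNA in 46.1% of cases at HDAC1 without HDAC3, 61.2% at HDAC1 with HDAC3 and 48.6% at no HDAC1 peak (50.0% of all). The difference between HDAC1 without and with HDAC3 was −15.1 points (95% CI −17.3 to −12.9), and −9.52 at equal ATAC tag count. Between HDAC1 without HDAC3 and no HDAC1 peak it was −2.50 points (95% CI −4.31 to −0.68), or −7.82 at equal ATAC tag count.

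**Figure D2:**
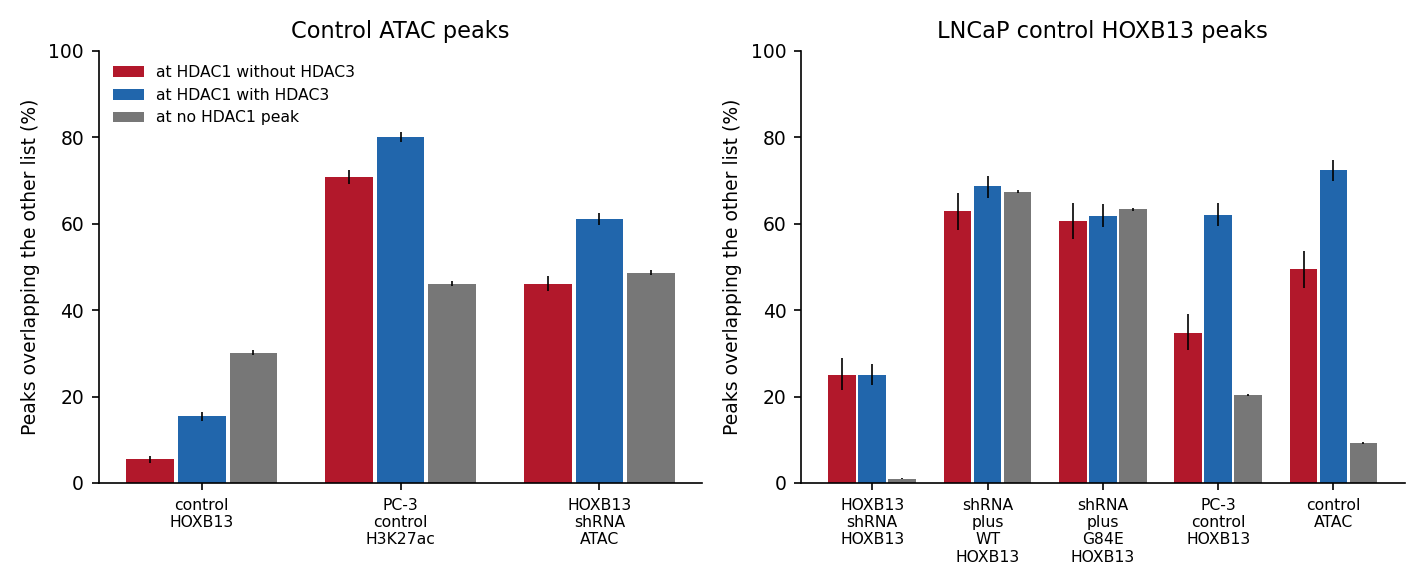
Left, control ATAC peaks, and right, LNCaP control HOXB13 peaks, split by whether they lay at HDAC1 without HDAC3 (red), at HDAC1 with HDAC3 (blue) or at no HDAC1 peak (grey); the y axis is the percent overlapping the list named below each group of bars, with Wilson 95% intervals. Control HOXB13 peaks overlapped a knockdown HOXB13 peak in 25%, 25% and 1.01% of cases, red, blue and grey.

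HOXB13 was rare at HDAC1 sites without HDAC3 in every LNCaP library. A control HOXB13 peak lay at 504 of them (5.26%) and at 1270 (18.0%) of those with HDAC3 (10.7% of all HDAC1 peaks), a difference of −12.7 points (95% CI −13.7 to −11.7). With HOXB13-WT on top of the shRNA the shares were 6.20% without HDAC3 and 20.2% with it (12.1% of all), and with HOXB13-G84E 5.09% and 16.9% (10.1% of all). The HOXB13-WT and HOXB13-G84E lists were longer, with 190879 and 191796 peaks against 91430 in the control. The order of the 2 classes was the same at open sites, where 7.08% without HDAC3 and 19.3% with it had HOXB13 (14.3% of all), and at sites with no ATAC peak, where the shares were 4.44% and 15.9% (7.82% of all). The difference narrowed to −8.14 points with centres within 100 bp, to −8.08 with an overlap covering 50% or more of the shorter of both peaks, and to −5.17 points (4.72% and 9.89%) without positions called in 9 or more lists. That last setting removes sites by the number of lists, the HOXB13 lists among them.

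The HOXB13 peaks that did lie there were of ordinary strength. Their median was 8.15 normalized tags at sites without HDAC3, 8.44 at sites with it and 7.28 in the whole control list. The site at chr4:1723104-1723420 (83.1 HDAC1 normalized tags) carried HOXB13 counts of 8.19 with HOXB13-WT, 5.66 with HOXB13-G84E and 8.73 in the control, and no HOXB13 peak after the shRNA alone. Of the 504 sites with a control HOXB13 peak, 54.0% had one with HOXB13-WT, against 61.0% at sites with HDAC3 (59.0% of all), a difference of −7.06 points (95% CI −12.2 to −1.97). With HOXB13-G84E the shares were 52.0% and 55.8% (54.7% of all), and the interval of the difference, −8.98 to 1.28 points, included 0.

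After HOXB13 knockdown HOXB13 peaks were listed at more HDAC1 sites without HDAC3 than in control cells, while the whole list was shorter. HOXB13 peaks lay at 798 sites (8.33%) after the shRNA and at 504 (5.26%) in the control, although the knockdown list held 22864 and the control list 91430 peaks, a ratio of 4.0 between control and knockdown list lengths. At HDAC1 peaks with HDAC3 the shares were 16% after the shRNA and 18.0% in the control (11.6% of all HDAC1 peaks after the shRNA). Only 132 sites without HDAC3 had a HOXB13 peak in both libraries, 666 had one after knockdown alone and 372 in the control alone. The knockdown peaks at these sites had a median of 5.72 normalized tags, against 4.87 in the whole knockdown list and a threshold of 4.24 for that list. The knockdown HOXB13 library held 47.2 M tags and the control 34.4 M, and the part of depth in these calls was not tested. With HOXB13 counted within 1000 bp of the HDAC1 peak the direction turned, with 16.5% after the shRNA and 22.98% in the control.

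The knockdown HOXB13 peaks at these sites differed from most of their list. Of the 22864 knockdown peaks, 799 (3.49%) lay at HDAC1 without HDAC3, and 43.8% of those had a control ATAC peak, against 55.3% at HDAC1 with HDAC3 and 3.51% at no HDAC1 peak (7.47% of all). PC-3 control H3K27ac was at 67.6% of them, against 76.6% and 10.04% in the other 2 groups (15.3% of all). A control HOXB13 peak was at 16.4%, against 29.4% and 4.25% (5.92% of all). The lists with HOXB13-WT and HOXB13-G84E were met by 15.5% and 15.3% of them (7.26% and 6.63% of all), and PC-3 HOXB13 by 9.01%, against 38.9% at HDAC1 with HDAC3 (5.6% of all). The differences from knockdown peaks at no HDAC1 peak were smaller at equal tag count: 7.44 in place of 12.1 points for control HOXB13, 5.14 in place of 9.64 for HOXB13-WT, 5.56 in place of 9.99 for HOXB13-G84E and 2.41 in place of 5.34 for PC-3 HOXB13. Most of these knockdown calls were absent from each of the other LNCaP HOXB13 lists. Of the HDAC1 sites without HDAC3 that had no control HOXB13 peak 7.34% had one after the shRNA, against 13.7% with HDAC3 (9.83% of all). Counted over HDAC1 peaks, those with knockdown HOXB13 and no HDAC3 had control ATAC in 44.1% of cases, against 59.0% with HDAC3 (52.8% of all), PC-3 control H3K27ac in 67.9%, against 76.5% (73.0% of all), and control HOXB13 in 16.5%, against 29.6% (24.2% of all).

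Control HOXB13 peaks at HDAC1 sites were called again after the knockdown far more often than those elsewhere. The share was 25% at HDAC1 without HDAC3, 25% at HDAC1 with HDAC3 and 1.01% at no HDAC1 peak (1.48% of all control HOXB13 peaks). The difference between HDAC1 without HDAC3 and no HDAC1 was 24 points (95% CI 20.4 to 28.0), and 23.8 at equal HOXB13 tag count. Knockdown HOXB13 peaks were also called at HDAC1 peaks that had no control HOXB13 peak. The shares there were 7.34% without HDAC3 and 13.7% with it (9.83% of all). No input library was named, so these shares do not show HOXB13 binding that outlasts the knockdown. Seen from the HDAC1 peaks with control HOXB13, 26.2% (132 of 504) without HDAC3 and 26.3% (334 of 1270) with it had HOXB13 after the shRNA (26.3% of all), and the interval of that difference was −4.53 to 4.54 points. Of the control HOXB13 peaks at HDAC1 without HDAC3, 62.9% overlapped a HOXB13-WT and 60.7% a HOXB13-G84E peak, against 67.4% and 63.3% at no HDAC1 peak (67.4% and 63.2% of all). These differences were −4.53 points for HOXB13-WT and −2.56 for HOXB13-G84E, and −9.47 and −7.48 at equal HOXB13 tag count. PC-3 HOXB13 was at 34.7%, against 62.1% with HDAC3 and 20.4% with no HDAC1 (21.1% of all). PC-3 control H3K27ac was at 66.3%, 75.8% and 12.8% of these 3 groups (14.0% of all). Accessibility also separated these HOXB13 peaks, with control ATAC at 49.4% of those at HDAC1 without HDAC3, 72.3% with HDAC3 and 9.18% with no HDAC1 (10.3% of all).

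HOXB13 of PC-3 cells separated the 2 classes of HDAC1 peaks more widely than LNCaP control HOXB13 did. A PC-3 HOXB13 peak was at 549 (5.73%) of the sites without HDAC3 and at 2232 (31.6%) of those with it (16.7% of all HDAC1 peaks), a difference of −25.9 points (95% CI −27.1 to −24.7). Among sites with LNCaP control HOXB13, 30.2% without HDAC3 and 61.5% with it also had PC-3 HOXB13 (52.6% of all). Since the antibody differed between the cell lines, antibody and cell line cannot be told apart in the HOXB13 values of PC-3.

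PC-3 H3K27ac lay over more than 50% of HDAC1 sites without HDAC3, but less often than over those with it. The share was 52.8% after HOXB13 shRNA and 52.8% (5051 sites) in the PC-3 control, against 75% and 74.1% at HDAC1 with HDAC3 (62.2% of all HDAC1 peaks after HOXB13 shRNA and 61.8% in the control). The control difference was −21.4 points (95% CI −22.8 to −19.9), and −15.5 at equal HDAC1 tag count. With an ATAC peak 71.6% of the sites without HDAC3 and 79.9% of those with it were acetylated in PC-3 (76.5% of all), and with no ATAC peak 44.2% and 65.0% (50.3% of all). Conversely, control ATAC was at 42.3% of the acetylated sites without HDAC3 and 66.0% of those with it (54.4% of all), and at 18.7% and 47.6% of those with no H3K27ac (27% of all). Of the sites with control HOXB13 it was at 41.9% and 65.7% (58.9% of all). The control H3K27ac difference was −9.52 points with centre distances. There HDAC3 centres had to lie within 100 bp. For H3K27ac the HDAC1 centre had to lie within 500 bp of the region centre or inside the region. It was −12.3 in the better-scoring 50% of the HDAC1 and HDAC3 lists, with the H3K27ac list kept whole. It was −33.4 when HDAC1 peaks within 1000 bp of HDAC3 were counted among those with HDAC3. These are other cells than those in which HDAC1 was measured, so the acetylation of the LNCaP sites is not shown by it.

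Acetylated regions at HDAC1 peaks of both classes had a higher median length than the whole PC-3 list. The median was 2550 bp at HDAC1 without HDAC3, 2366 bp with it and 1784 bp in the whole list. Tag density was 29.0 normalized tags per kb without HDAC3, 35.4 with it and 16.7 in the whole list. A longer region overlaps a peak more easily, and a region was counted once for each HDAC1 peak it met. The comparison of lengths with the whole list therefore cannot show that these regions are unusual. The part of region length in the H3K27ac shares was not tested. After HOXB13 shRNA 94.6% of the acetylated sites without HDAC3 and 98.1% of those with it were still in a region (96.4% of all).

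Combining the control ATAC, control HOXB13 and PC-3 control H3K27ac lists gave 8 classes of HDAC1 sites without HDAC3. The most common had none of the 3, with 3550 sites (37.1%) and a median HDAC1 count of 11.5 normalized tags. Sites with H3K27ac alone numbered 2750 (28.7%, median 19.3), those with ATAC and H3K27ac 1966 (20.5%, median 22.2), and those with ATAC alone 805 (8.41%, median 16.5). All 3 lists met at only 170 sites (1.78%, median 18.6). The strongest sites with none of the 3 included chr1:201368315-201368631, which had 60.9 HDAC1 normalized tags (95% CI 48.6 to 75.3) and was called in no other of the 12 lists. In all, 2836 sites (29.6%) were called in no other list, and their median HDAC1 count was 11.5 normalized tags, equal to the lower quartile of the class.

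**Figure D3:**
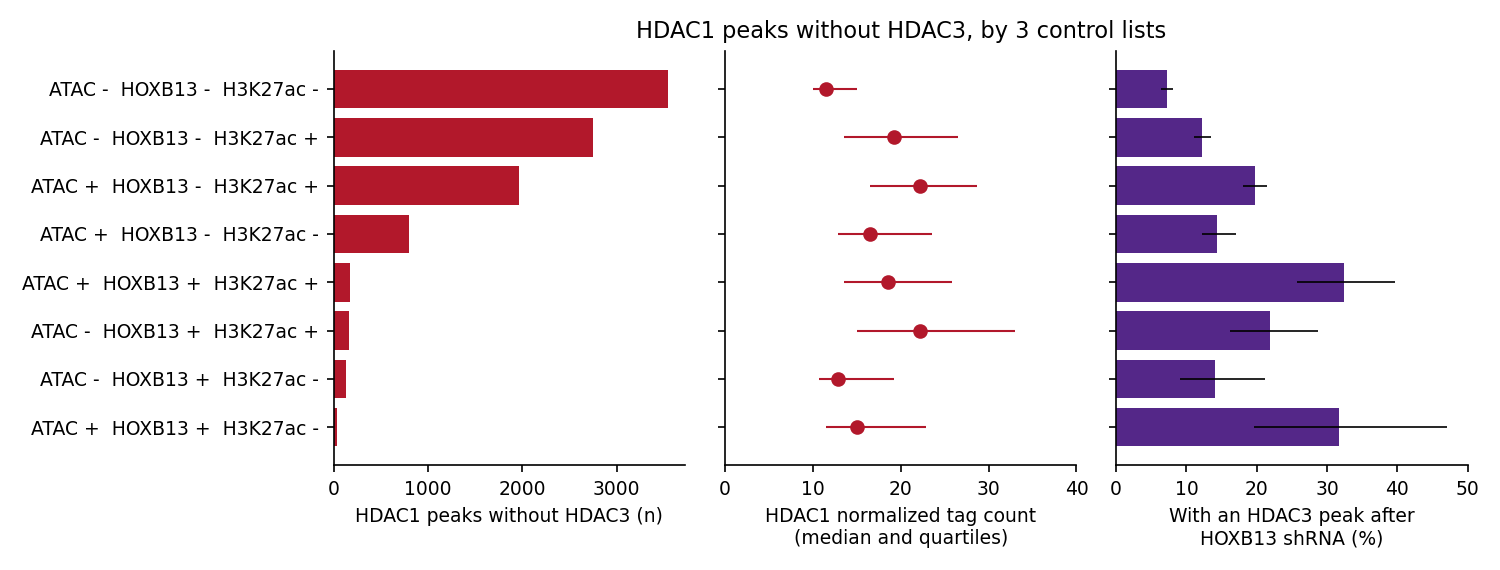
HDAC1 peaks without HDAC3 by the presence (+) or absence (-) of control ATAC, control HOXB13 and PC-3 control H3K27ac: number of peaks (left), median HDAC1 normalized tag count with quartiles (middle) and percent with an HDAC3 peak after HOXB13 shRNA with Wilson 95% intervals (right). The class with none of the 3 is the most numerous (3550) and has the lowest median (11.5).

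HDAC1 strength went with accessibility and acetylation, yet the gap between the classes was there at every strength. Over 10 equal groups from the weakest to the strongest HDAC1 peaks, control ATAC was at 10.3% of the weakest sites without HDAC3 and 48.7% of the strongest, while at HDAC1 with HDAC3 these were 44.9% and 64.1%. PC-3 H3K27ac was at 18.9% of the weakest and 83.2% of the strongest without HDAC3, against 38.4% and 90.5% with it. HOXB13 followed strength less, since 3.6% of the weakest and 9.12% of the strongest group without HDAC3 had it, against 22.1% and 24.2% with HDAC3. Sites called in no other list made up 64.9% of the weakest group without HDAC3 and 4.02% of the strongest.

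**Figure D4:**
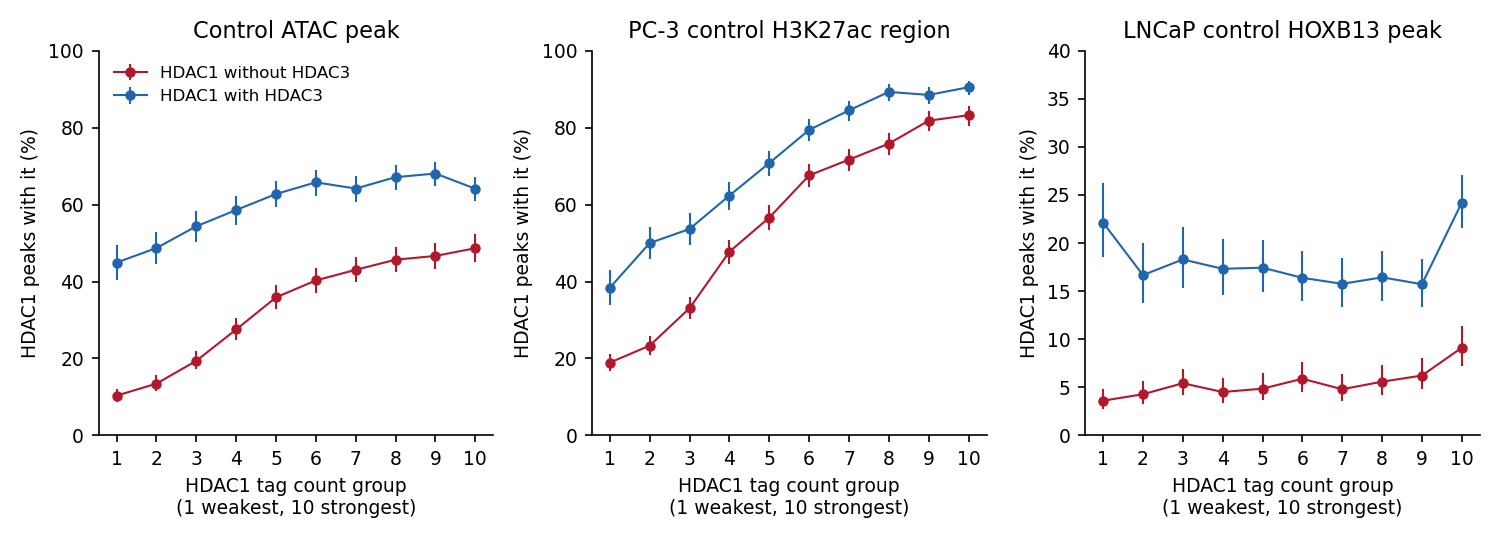
Percent of HDAC1 peaks with a control ATAC peak (left), a PC-3 control H3K27ac region (middle) and a LNCaP control HOXB13 peak (right, y axis to 40%) over 10 equal groups of HDAC1 tag count, for HDAC1 without HDAC3 (red) and with HDAC3 (blue), with Wilson 95% intervals. The red points are below the blue ones in all groups and panels.

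Distance from HDAC3 divided the class. The median gap to the nearest control HDAC3 peak was 7542 bp. Of the sites, 2851 (29.8%) lay under 1000 bp away, 2472 (25.8%) from 1000 bp to under 10000 bp and 4252 (44.4%) 10000 bp or more. PC-3 H3K27ac was at 78.3% of the nearest sites, 45.4% of the middle and 39.9% of the far ones, and control ATAC at 41.2%, 26.3% and 27.2%. Median HDAC1 was 20.1, 15 and 13.6 normalized tags over the same 3 distances. HOXB13 differed little with distance, at 6.28%, 4.73% and 4.89%.

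**Figure D5:**
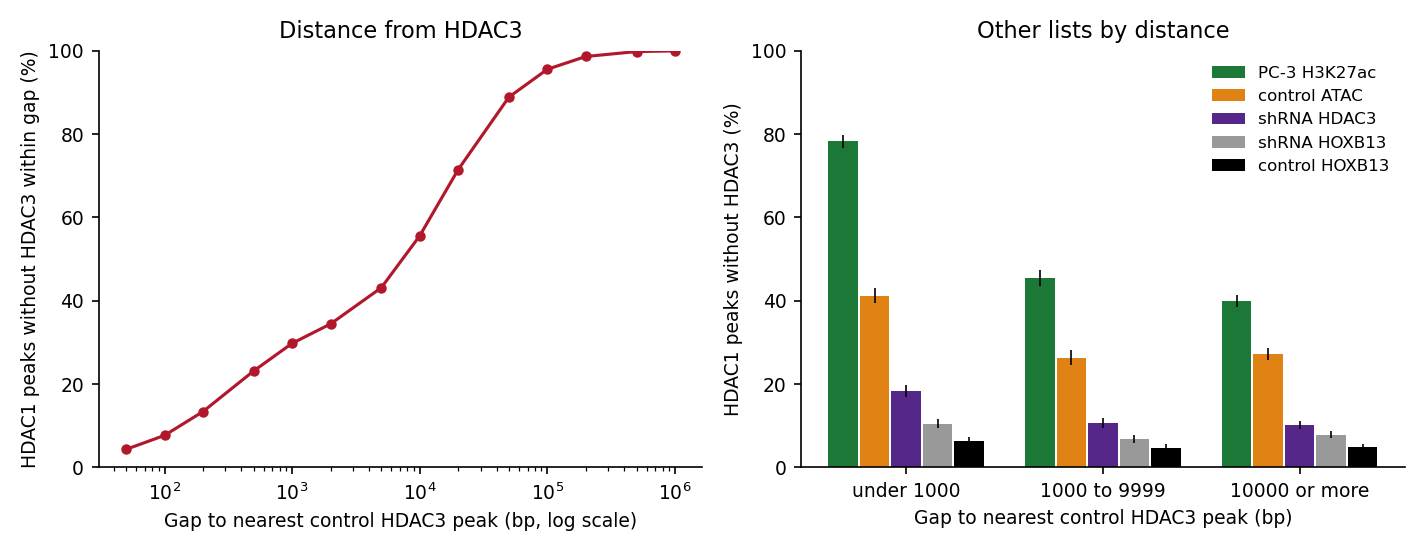
Left, cumulative percent of HDAC1 peaks without HDAC3 by gap to the nearest control HDAC3 peak (bp, log scale). Right, percent of these peaks with each list in 3 classes of gap, with Wilson 95% intervals; PC-3 control H3K27ac is at 78.3% of sites under 1000 bp from HDAC3 and at 39.9% of those 10000 bp or more away.

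An HDAC3 peak was called at some of the sites after HOXB13 knockdown. HDAC3 peaks of the knockdown library lay at 1217 (12.7%) of the sites, where 35.5% of all HDAC1 peaks had one. The sites were chosen for having no control HDAC3 peak, so this share has no counterpart in the other class and a change in HDAC3 is not shown by it. Sites with control HOXB13 had such a peak more often (24.2%, 122 of 504) than sites without (12.1%, 1095 of 9071), a difference of 12.1 points (95% CI 8.53 to 16.1), and 11.8 at equal HDAC1 tag count. With control ATAC the share was 19.1% and without it 9.80%, a difference of 9.35 points (95% CI 7.79 to 11). The HOXB13 difference was there among open sites (32.2% with HOXB13 and 18.2% without; 14.1 points, 95% CI 7.95 to 20.8) and among sites with no ATAC peak (18.4% and 9.40%; 9.03 points, 95% CI 4.94 to 13.9). Sites with all 3 lists had the highest share among the 8 classes (32.4%), those with none the lowest (7.18%). The same classes were highest and lowest at HDAC1 peaks with HDAC3, at 80.7% and 54.0%. Among those peaks with ATAC and H3K27ac the share was 80.7% with HOXB13 and 69.0% without. Among those with neither it was 75.2% with HOXB13 and 54.0% without. A higher share at HOXB13 sites was therefore not particular to sites without HDAC3. Seen from the knockdown HDAC3 list, 245 of the 1218 peaks at HDAC1 without HDAC3 (20.1%) overlapped a control HDAC3 peak beside the HDAC1 peak (52.2% of the whole list). Control ATAC was at 46.9% of them, against 69.6% at HDAC1 with HDAC3 and 25.8% at no HDAC1 peak (33.3% of all), and PC-3 control H3K27ac at 66.8%, 76.2% and 27.4% (36.3% of all). Control HOXB13 was at 14.4%, 24.9% and 28.9% (27.7% of all). At equal HDAC3 tag count the differences from HDAC1 with HDAC3 were −4.06 in place of −9.32 points for H3K27ac and −6.58 in place of −10.5 for HOXB13, and the ATAC difference from no HDAC1 peak was 13.7 in place of 21.1. The knockdown HDAC3 peaks at the sites had a median of 13.7 normalized tags, against 11.8 in the whole knockdown list. The knockdown HDAC3 library held 26.3 M tags and the control 21.6 M, and the part of depth in these calls was not tested.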

How the data were processed

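Per the submitters' processing notes, Bowtie2, HOMER 4.2 and the hg19 build were used. HOMER findPeaks was run by the authors on each library alone, per the file headers, and the command lines name no input library. The 10 HDAC1, HDAC3, HOXB13 and ATAC lists are of factor style, with 1 fixed width per library and a false discovery rate of 0.001. Peaks had to reach 4-fold over the 10000 bp around them (local p 0.0001). The 2 PC-3 H3K27ac lists are of histone style, with windows of 1000 bp stitched into regions. The deposited signal is the normalized tag count, scaled by the authors to 10000000 tags per library. Scores from findPeaks, as deposited, only rank peaks here. Fold enrichment over the surroundings, also as deposited, only describes them.

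Peaks were taken as shared at an overlap of at least 1 bp. Shares have Wilson and their differences Newcombe 95% intervals. Named regions have exact Poisson intervals from whole tags (100% of the HDAC1 values were whole within 0.1 tags). All intervals cover counting error only. With 1 library per group no test between conditions was made and no p-value is given. Differences were also standardised over 10 equal groups of tag count, weighted by the first group of each comparison. Between the classes of HDAC1 peaks this was the peaks without HDAC3, and within that class it was the peaks with the named list. In views from another list, the groups were of that list's own tag count. The weights there were its peaks at HDAC1 without HDAC3. Regions named on chromosomes 1 to 22 and X were the 5 strongest HDAC1 peaks without HDAC3, the 5 strongest in each of 4 classes (with ATAC, without ATAC but with PC-3 H3K27ac, with HOXB13, with none of these) at positions called in fewer than 9 of the 12 lists, and 3 on each side of the overlap limit. The members, classes and rules were chosen with earlier results of these data known. The overlap code was tested on simulated data. Sequences, motifs and gene names are not given, because hg19 reference files were not used here. Python 3.11.15, numpy 2.4.6, pandas 2.3.3 and scipy 1.17.1 were used.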

Additional observations from a re-analysis of the deposited data

Results flagged for a closer look

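The HOXB13 share moved in opposite directions at the 2 classes of HDAC1 peaks when the knockdown was set against the control. It was 3.07 percentage points higher after HOXB13 shRNA at HDAC1 without HDAC3 (8.33% against 5.26%) and −2.0 points, that is lower, at HDAC1 with HDAC3 (16% against 18.0%). The difference between the 2 classes was not tested, since each condition had 1 library. The knockdown HOXB13 library was also deeper than the control (47.2 M tags against 34.4 M), and the part of depth was not tested. The direction turned under 1 of 9 alternatives at HDAC1 without HDAC3 and under 5 of 9 at HDAC1 with HDAC3. With equal numbers of HOXB13 peaks the knockdown share was higher at both classes, by 6.66 points without HDAC3 and 9.49 with it.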

How the results depend on the processing

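The share of HDAC1 peaks without HDAC3 was 84.6% with centres within 100 bp, 68.8% with overlap of 50% of the shorter peak, 40.4% with no HDAC3 within 1000 bp, 50.3% with no HDAC3 in control or knockdown, and 61.2% without positions in 9 or more lists. With those settings in the same order, the ATAC difference was −20.3, −25.8, −28.6, −30.3 and −26.5 points; it was −21.9 in the better-scoring 50%, −27.7 at equal HDAC1 tag count and −25.8 with ATAC within 1000 bp. The HOXB13 difference was −8.14, −8.08, −9.79, −12.3 and −5.17 points, −8.83 in the better-scoring 50% and −15.2 with HOXB13 within 1000 bp. The H3K27ac difference was −9.52, −16.3, −33.4, −22.4 and −17.9 points, −12.3 in the better-scoring 50% (H3K27ac list kept whole) and −15.5 at equal HDAC1 tag count. In its centre setting an H3K27ac region counted with its centre within 500 bp or with the HDAC1 centre inside it. The ATAC recall difference was −12.3 with no HDAC3 within 1000 bp, −15.4 in the better-scoring 50%, −15.0 without positions in 9 or more lists and −7.70 with ATAC within 1000 bp. No alternative run turned the direction of these 4 differences. The knockdown minus control HOXB13 share at HDAC1 without HDAC3 was −6.51 points with HOXB13 within 1000 bp, 6.66 with equal numbers of HOXB13 peaks, 6.63 in the better-scoring 50% and 2.20 with centres, against 3.07; of 9 alternatives 1 turned its direction. At HDAC1 with HDAC3, where 5 of 9 did, it was 0.860 with centres, 1.33 with overlap of 50%, 3.57 in the better-scoring 50%, 2.91 without positions in 9 or more lists and 9.49 with equal numbers of HOXB13 peaks. The cause was not tested. The settings within 1000 bp and with equal numbers of peaks were chosen after seeing the data. No paired analysis was possible because each group held 1 library. Depth limits the weak peaks most: the weakest HDAC1 peaks rest on 10 tags.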

Other observations

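HDAC1 peaks without HDAC3 were spread over all chromosomes. Their share of HDAC1 peaks was lowest on chromosome 19, at 50.6% (522 of 1031, 95% CI 47.6 to 53.7), against 57.6% over all. Control ATAC was at 14.9% of the 148 sites on chromosome X and 40.2% of the 376 on chromosome 4, against 31.1% of all the sites. These are the lowest and highest shares among the named chromosomes. The 111 sites on other sequences had 13.5%. ATAC at HDAC1 peaks with HDAC3 was not compared by chromosome, so the contrast is not shown to be particular to sites without HDAC3.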
